A study of Arabidopsis thaliana with 12 samples.

Results

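The change between predawn and postdusk was described in Arabidopsis seedlings of the line tic-2, which is mutated in the circadian clock gene TIC (TIME FOR COFFEE). Its 6 libraries, 3 from postdusk and 3 from predawn, were taken by the genotype and time in the column names of a table of 12 libraries, and 19274 of the 25729 genes in that table reached 1 FPKM in at least 3 libraries and were tested. FPKM are reads scaled to gene length and library size, and differences are given on the log2(FPKM + 1) scale, postdusk minus predawn. A gene was called where limma's p-value, adjusted over all tested genes by the Benjamini-Hochberg method, was under 0.05. By its title, the series asks how TIC acts on the growth of the hypocotyl through the PHYA pathway of far-red light sensing.

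Whole seedlings homozygous for tic-2 in the Col-0 ecotype and wild-type Col-0 seedlings were both 10 days old, grown at 22 °C under conditions labelled LD on MS medium with 3% sucrose. Postdusk was ZT12 and predawn was ZT0, with 3 libraries a group that the series calls biological replicates. The sample titles and the description field contradict each other for 6 samples: the 3 titled tic-2 predawn carry Col-0 ZT12 names there, and the 3 titled Col-0 postdusk carry tic-2 ZT0 names. Groups were taken from the column names, so every comparison here that uses tic-2 predawn or Col-0 postdusk values rests on those names being right. No label names the lesion that tic-2 carries, and TIC RNA levels are therefore no check on the genotype. TIC (AT3G22380, chromosome 3, 7912905 to 7919707, TAIR10.1) had 70.9, 62.2 and 105.8 FPKM in tic-2 at postdusk and 63.9, 70.1 and 98.4 FPKM in tic-2 at predawn, against 61.9, 57.5 and 63.1 FPKM in Col-0 at postdusk and 52.1, 56.6 and 56.0 FPKM in Col-0 at predawn. The TIC values of tic-2 overlapped between the times (log2 difference 0.03, limma adjusted p = 0.92).

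The plant clock is a loop of transcription factors that repress each other at different times of day: the MYB factors CCA1 and LHY accumulate around dawn, the PRR proteins follow through the day, and TOC1, GI and the evening complex of ELF3, ELF4 and LUX act around dusk. The clock times many output genes, among them those for photosynthesis, starch turnover, cold tolerance and growth, and light and sugar also drive many of them directly. In wild-type seedlings CCA1 and LHY are therefore high before dawn and low after dusk, and the evening genes do the reverse.

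Recovered depth was between 19255025 and 21750360 reads a library, which makes 1 read in 1 kb of exons worth 0.046 to 0.0519 FPKM. Across genes, replicates of tic-2 correlated at 0.971 to 0.990 at postdusk and at 0.966 to 0.983 at predawn, against 0.982 to 0.988 at postdusk and 0.992 at predawn in Col-0. The tic-2 libraries lettered C received the lowest limma array weights, 0.228 at postdusk and 0.248 at predawn. The postdusk one held 0.0758% of its FPKM in organelle genes against 0.126% to 0.214% in the 11 other libraries. At predawn the tic-2 library lettered A also had a low weight, 0.411, against 3.769 for the one lettered B. List counts are repeated after the gene lists without both libraries lettered C only. Many named genes, among them FKF1, LUX, CAT2, BAM3, RCA and PHS2, overlap another gene in the table, and no source used here says whether reads were counted by strand.

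The mutant still had a large difference between dawn and dusk. In tic-2, 7304 genes were called (37.9% of those tested), 3574 higher at postdusk (18.5%) and 3730 lower (19.4%), with a median over all genes of -0.05. In Col-0, 7142 genes were called (37.1%), 4366 higher (22.7%) and 2776 lower (14.4%), with a median of 0.05. Calls with a difference of at least 1 on the log2 scale numbered 931 higher and 506 lower in tic-2, and 985 higher and 605 lower in Col-0. Without reference to a test, all 3 postdusk libraries lay above all 3 predawn libraries for 4056 genes in tic-2 (21.0%) and 6721 in Col-0 (34.9%), and below them for 4478 in tic-2 (23.2%) and 4381 in Col-0 (22.7%). The share of calls that were higher was 48.9% in tic-2 and 61.1% in Col-0, and the Col-0 share was 52.3% after median-of-ratios rescaling of the libraries and 50.1% after quantile normalization.

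The genes called in each genotype were compared by direction. Of the 4366 genes higher at postdusk in Col-0, 2232 were also called higher in tic-2, which is 51.1% of the Col-0 set and 62.5% of the tic-2 set. A further 1987 were not called in tic-2 and 147 were called lower. Of the 2776 genes lower at postdusk in Col-0, 1585 were called lower in tic-2 (57.1% of the Col-0 set and 42.5% of the tic-2 set), 914 were not called and 277 were called higher. A call in only 1 genotype does not show a difference between them: the interaction, tested below, was called for 642 of those 1987 genes and 333 of those 914. Of the genes not called in Col-0, 1065 were called higher in tic-2 and 1998 lower, and the interaction was called for 402 of the 1065 and 488 of the 1998.

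Whether a time effect differed between the genotypes was tested as the interaction in the same fit. It was called for 3060 genes (15.9%), 1404 with a more positive time effect in tic-2 (7.28%) and 1656 with a more negative one (8.59%), around a median of -0.11 over all genes. The positive share was 45.9% as deposited, 60.4% after median-of-ratios rescaling and 57.8% after quantile normalization, so the balance of directions turned with the scaling. Without both tic-2 libraries lettered B the interaction was called for 1981 genes, and without both lettered C for 4440. For the 985 strong dusk genes of Col-0, chosen by their Col-0 values, the median time effect was 0.79 in tic-2 against 1.47 in Col-0. For its 605 strong dawn genes it was -0.53 in tic-2 against -1.35 in Col-0. Choosing genes by large effects in Col-0 by itself favours larger medians there, so these medians do not measure a loss in tic-2.

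**Figure D1:**
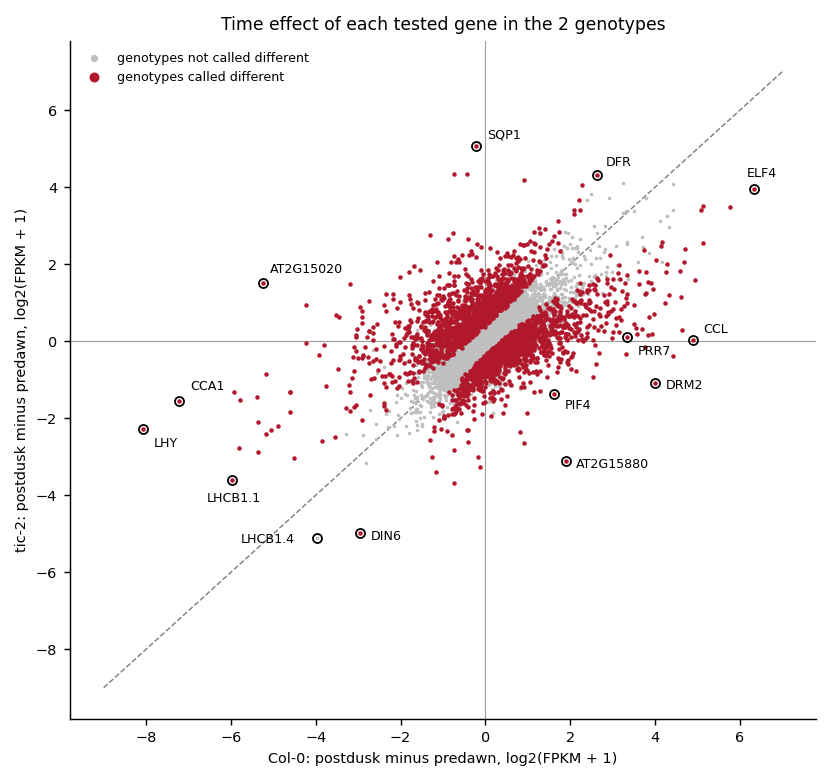
Time effect of each of the 19274 tested genes in tic-2 (y axis) and in Col-0 (x axis), both postdusk minus predawn on the log2(FPKM + 1) scale, with genes called for a difference between genotypes in red and the dashed line marking equal effects. CCA1 and LHY lie far left of the line at -7.22 and -8.08 in Col-0 but at -1.55 and -2.29 in tic-2, while SQP1 changed by 5.07 in tic-2 and by -0.22 in Col-0.

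Most morning genes of the clock that were lower at postdusk in Col-0 kept that direction in tic-2, mostly with a smaller range. CCA1 (AT2G46830) had 60.1, 52.2 and 69.6 FPKM in tic-2 at postdusk and 183, 157 and 198 FPKM in tic-2 at predawn. The groups did not overlap, and the level at postdusk was 2.96-fold lower (log2 difference -1.55, SE 0.12, limma adjusted p = 1.4e-06). In Col-0 it averaged 0.748 ± 0.031 FPKM at postdusk and 259 ± 21.2 FPKM at predawn (SD, n = 3 each). At both times CCA1 in tic-2 lay between the postdusk and predawn levels of Col-0.

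LHY (AT1G01060), the close partner of CCA1, behaved alike. It had 32.3, 29.4 and 32.7 FPKM in tic-2 at postdusk and 155, 151 and 167 FPKM in tic-2 at predawn, a 5.01-fold lower level (-2.29, SE 0.08, limma adjusted p = 9.3e-09). In Col-0 it averaged 0.483 ± 0.03 FPKM at postdusk and 401 ± 23.2 FPKM at predawn (SD, n = 3 each). The time effects of the genotypes differed by 5.66 for CCA1 (SE 0.16, limma adjusted p = 2.2e-09) and by 5.79 for LHY (SE 0.11, limma adjusted p = 6.3e-11).

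Of the 16 tested morning genes, 10 were called lower and 1 higher at postdusk in tic-2, with a median of -1.19, against 12 lower and 1 higher in Col-0 with a median of -3.10. The interaction was called for 13 of them, 11 positive and 2 negative. The members are CCA1, LHY, 8 REVEILLE-type MYB factors, the LNK coactivators 1 to 4 and the repressors PRR9 and PRR7. Among the morning genes of tic-2, LNK2, LNK3 and LNK4, coactivators of the REVEILLE proteins, had the largest log2 differences. LNK2 had 46.4, 44.5 and 52.8 FPKM in tic-2 at postdusk against 299.9, 289.997 and 421 FPKM in tic-2 at predawn. LNK3 and LNK4 were 8.08-fold and 9.12-fold lower at postdusk, and LNK1 was not called (0.34). LNK1 to LNK4 each overlap another gene in the table. RVE8, an activator of evening genes, had 24.6, 23.4 and 20.1 FPKM in tic-2 at postdusk against 69.3, 63.4 and 69.8 FPKM at predawn, and in Col-0 it averaged 1.74 FPKM at postdusk and 149.7 FPKM at predawn.

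A few morning genes left the common pattern. ASG4, the symbol RefSeq gives to RVE3, was called higher at postdusk in tic-2 (0.78, limma adjusted p = 0.0048) and lower in Col-0 (-2.91). RVE2 was not called in tic-2 at -0.08 and was called lower in Col-0 at -2.11. The REVEILLE-type gene AT4G01280 was likewise not called in tic-2 (-0.06) and was called lower in Col-0 (-0.58). RVE7 had no smaller range in tic-2, at -1.06 against -0.96 in Col-0. PRR9, an early PRR repressor, had 3.38, 3.23 and 3.97 FPKM in tic-2 at postdusk and 10.07, 6.78 and 8.9 FPKM in tic-2 at predawn, while no Col-0 library exceeded 0.489 FPKM. The PRR9 groups of tic-2 did not overlap and the difference was -1.07 (SE 0.15, limma adjusted p = 0.00018). PRR7, which follows PRR9 in the day, was not called in tic-2 (0.10, SE 0.15, limma adjusted p = 0.62), with 46.1, 44.7 and 61.4 FPKM at postdusk and 45.9, 41.8 and 52.9 FPKM at predawn. In Col-0, PRR7 averaged 19.8 ± 3.57 FPKM at postdusk and 1.05 ± 0.19 FPKM at predawn (SD, n = 3 each), so both tic-2 times exceeded both Col-0 times.

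Some evening genes were still higher at postdusk than at predawn in tic-2. Only ZT0 and ZT12 were sampled, so the time of a peak is not known for any gene here. ELF4, GI, TOC1, LUX and FKF1 were higher in every tic-2 predawn library than in any Col-0 predawn library. ELF4, a subunit of the evening complex, had 98.8, 114.8 and 62.0 FPKM in tic-2 at postdusk and 5.72, 5.25 and 3.74 FPKM in tic-2 at predawn, an 18.7-fold higher level at postdusk (3.95, SE 0.21, limma adjusted p = 1.6e-07). Col-0 averaged 162 ± 16.6 FPKM at postdusk and 1.05 ± 0.31 FPKM at predawn (SD, n = 3 each). GI, a clock protein of the evening, had 19.96, 17.3 and 24.6 FPKM in tic-2 at postdusk and 5.48, 5.52 and 4.41 FPKM in tic-2 at predawn, against a Col-0 mean of 26.3 FPKM at postdusk and 0.134 FPKM at predawn. The postdusk values of GI overlapped between the genotypes and the predawn values lay far apart.

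TOC1, the evening PRR that represses CCA1 and LHY, had 69.4, 67.03 and 96.7 FPKM in tic-2 at postdusk and 42.0, 42.5 and 42.0 FPKM in tic-2 at predawn (0.85, SE 0.12, limma adjusted p = 0.00017). In Col-0 it averaged 88.5 ± 4.18 FPKM at postdusk and 8.72 ± 0.255 FPKM at predawn (SD, n = 3 each). LUX, the DNA-binding subunit of the evening complex, had 27.0, 25.9 and 26.1 FPKM in tic-2 at postdusk and 18.7, 20.05 and 18.1 FPKM in tic-2 at predawn, against Col-0 means of 25.9 FPKM at postdusk and 1.38 FPKM at predawn. Its difference in tic-2 was 0.45 (SE 0.12, limma adjusted p = 0.0088), and it was not called without both tic-2 libraries lettered A. For both genes the genotypes overlapped at postdusk and did not at predawn.

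PRR5 and ELF3 were not called over time in tic-2 (0.17 and 0.13) but were called in Col-0 (3.84 and 1.37). PRR5 had 16.3, 14.1 and 24.0 FPKM in tic-2 at postdusk and 17.1, 14.3 and 15.6 FPKM in tic-2 at predawn, and those groups overlapped. FKF1, which senses blue light for the timing of flowering, was 3.96-fold higher at postdusk in tic-2, where it averaged 8.95 ± 1.67 FPKM at postdusk and 2.26 ± 0.07 FPKM at predawn, against 31.1 ± 4.15 FPKM at postdusk and 0.039 ± 0.014 FPKM at predawn in Col-0 (SD, n = 3 each). Of the 12 evening genes, 7 were called higher and 2 lower in tic-2, with a median of 0.35, against 9 higher and 1 lower in Col-0 with a median of 3.35. The interaction was negative for 10 and positive for 1. The lower calls, LKP2 (-0.30) and CHE (-0.50), were lost after median-of-ratios rescaling and without the libraries lettered C.

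**Figure D2:**
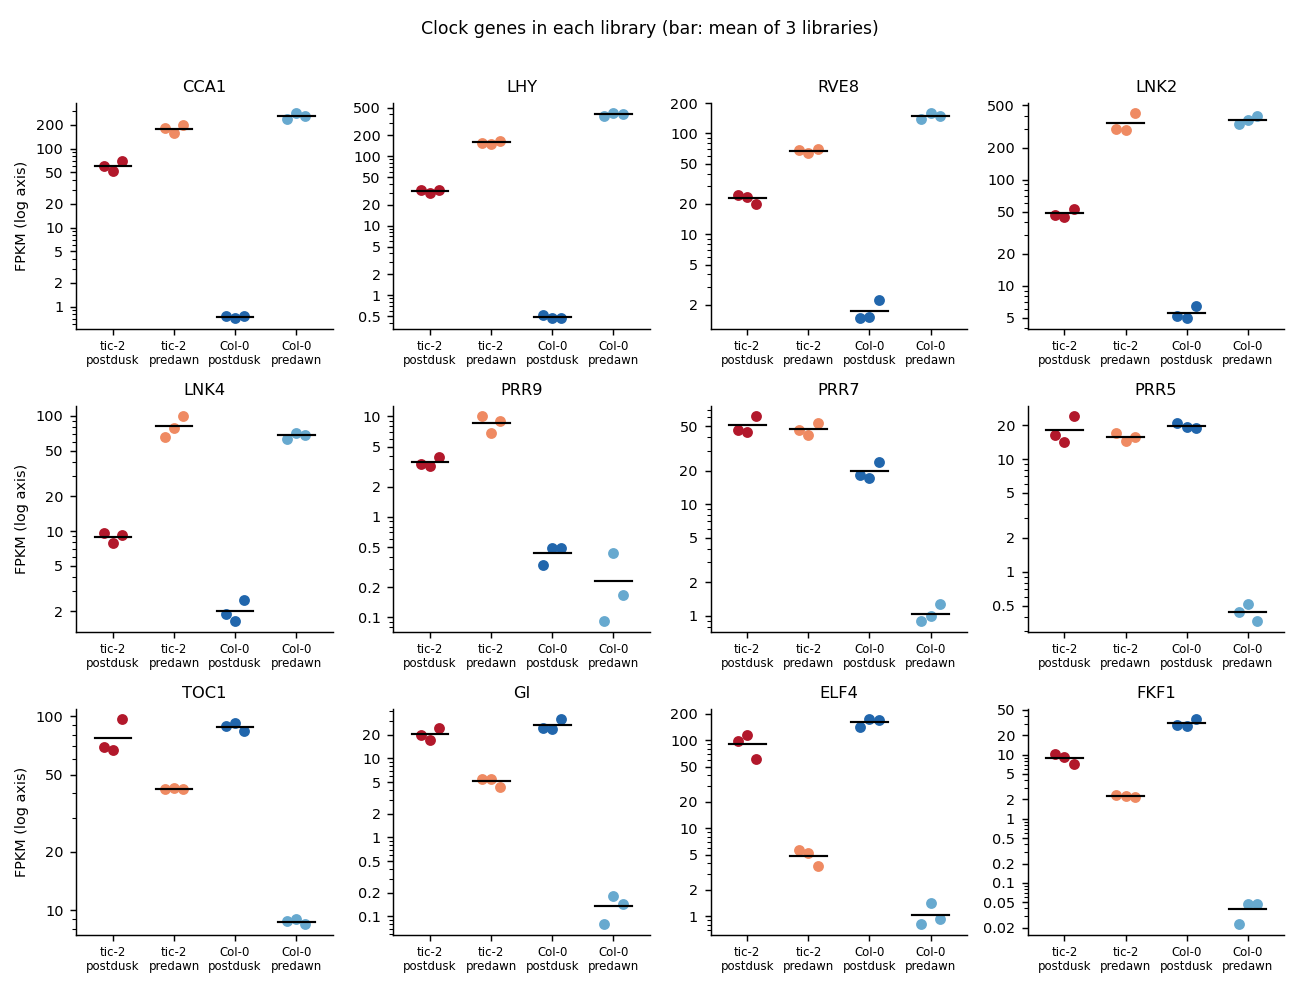
FPKM of 12 clock genes in each library on log axes, with tic-2 at postdusk and at predawn on the left and Col-0 at postdusk and at predawn on the right of each panel, and bars for the mean of 3 libraries. LNK2, LNK4, GI and ELF4 keep a wide gap between the tic-2 times, whereas PRR7 and PRR5 of tic-2 overlap between them, and the lowest Col-0 groups of CCA1, GI and FKF1 lie below every tic-2 library.

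Short stretches of promoter were read from the RefSeq TAIR10.1 genome for 6 of these genes, to show where 2 motifs known from clock studies lie near the starts of genes described above. The window searched was the 500 bases before the RefSeq start of each gene, on both strands. The evening element, AAAATATCT, a binding site of CCA1, LHY and the REVEILLE factors, is in capitals in the first 3 lines, and the G-box, CACGTG, a palindrome bound by the PIF and HY5 factors, is in capitals in the last 3. Each line runs 5′ to 3′ on the strand of its gene.
FKF1 (chr1:25508423-25508491, plus strand): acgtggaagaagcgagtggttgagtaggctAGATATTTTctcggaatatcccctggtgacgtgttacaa
TOC1 (chr5:24674782-24674850, plus strand): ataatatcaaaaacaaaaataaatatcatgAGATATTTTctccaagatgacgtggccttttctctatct
LUX (chr3:17182959-17183027, plus strand): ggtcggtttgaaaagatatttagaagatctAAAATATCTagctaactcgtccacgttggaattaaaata
LNK3 (chr3:3923344-3923409, plus strand): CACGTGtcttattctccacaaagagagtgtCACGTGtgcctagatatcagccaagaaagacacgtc
LHY (chr1:37916-37981, minus strand): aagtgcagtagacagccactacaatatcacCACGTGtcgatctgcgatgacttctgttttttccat
CCA1 (chr2:19245368-19245433, plus strand): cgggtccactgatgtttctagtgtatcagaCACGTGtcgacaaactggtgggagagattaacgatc
In FKF1 and TOC1 the evening element is read on the strand opposite to the gene, as AGATATTTT, and in LUX on the gene's own strand. The last base of the match lay 178 bases before the start in FKF1, 143 in TOC1, 45 in LUX, 136 in LNK3, 75 in LHY and 188 in CCA1.

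Evening elements were found in 5 of the 12 evening genes and 1 of the 16 morning genes, and G-boxes in 9 of the 16 morning genes and 2 of the 12 evening genes. Over the 19141 tested genes with a promoter window, 4.46% held an evening element and 10.4% a G-box. Among strongly changed genes, those of at least 1 on the log2 scale, the evening element was held by 5.49% of the 929 higher at postdusk in tic-2 and by 12.9% of the 984 higher at postdusk in Col-0. Of those 984, the 626 also called higher in tic-2 held it at 11.5%. The 327 not called in tic-2 held it at 15.9%, and the 31 called lower there at 9.68%. Among strongly lower genes the evening element was held by 5.36% in tic-2 and 2.84% in Col-0. The highest of these shares, 17.7%, was among the 531 genes whose time effect was more negative in tic-2 by at least 1.

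The G-box was held by 13.2% of the genes strongly higher and 13.5% of those strongly lower in tic-2, against 14.4% and 18.1% in Col-0. Among the 646 genes whose time effect was more positive in tic-2 by at least 1, 18.1% held it. The 3 other motifs were searched in the same way: AAAAAATCT, the CCA1-binding site, was held by 6.46% of the strongly higher and 6.55% of the strongly lower genes of tic-2, against 6.02% of all. AAACCCT, the telo-box, was held by 10.4% and 8.93% against 11.5% of all, and ATGGGCC, the protein box, by 8.5% and 7.54% against 10.9% of all. No evening element match overlapped a match of the CCA1-binding site. These shares describe letters in a window and were given no test.

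**Figure D3:**
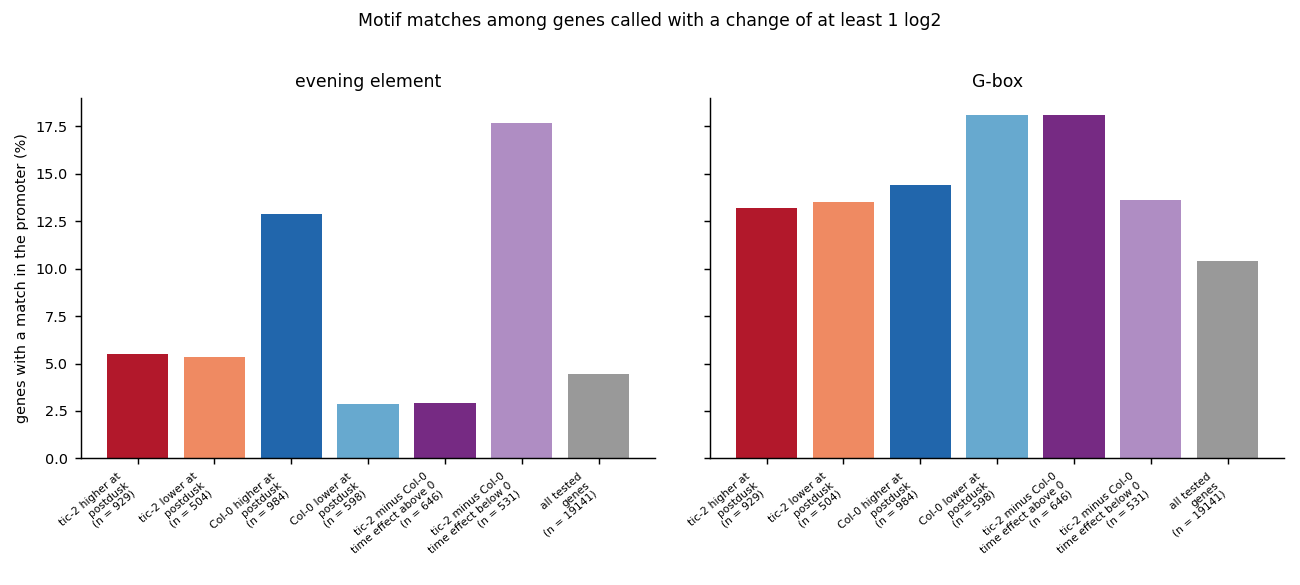
Share of genes with an evening element (left) and a G-box (right) in the 500 bases before the gene start, in percent, for genes called with a change of at least 1 log2 in tic-2, in Col-0 and in the difference between them, and for all tested genes. The evening element stands at 5.49% of the dusk genes of tic-2, 12.9% of those of Col-0 and 17.7% of the genes with a more negative time effect in tic-2.

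Clock outputs were split. Of 8 tested members, 2 were called higher and 3 lower at postdusk in tic-2, against 3 higher and 5 lower in Col-0. The interaction was called for all 8. Among all tested genes, 18.5% were called higher and 19.4% lower in tic-2, and the interaction was called for 15.9%. The catalase gene CAT2 turned its direction, with 779, 655 and 958 FPKM in tic-2 at postdusk against 410.1, 341 and 366 FPKM in tic-2 at predawn, and means of 222 FPKM at postdusk and 1015 FPKM at predawn in Col-0. GRP7, an RNA-binding protein, averaged 796 ± 183 FPKM at postdusk and 484 ± 65.8 FPKM at predawn in tic-2, against 2566 ± 265 FPKM at postdusk and 163 ± 20.4 FPKM at predawn in Col-0 (SD, n = 3 each). COL2, a CONSTANS relative, and CDF2 and CDF3, repressors of flowering genes, were called lower at postdusk in both genotypes.

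The genes with the largest rises at postdusk in tic-2 included genes not called in Col-0. SQP1 (AT5G24150, chromosome 5, 8172300 to 8175525), annotated as an oxidoreductase, had 65.7, 67.3 and 97.3 FPKM in tic-2 at postdusk and 1.4, 1.37 and 1.07 FPKM in tic-2 at predawn, 59.9-fold higher at postdusk (5.07, SE 0.16, limma adjusted p = 6.2e-09). In Col-0 it averaged 35.2 ± 6.15 FPKM at postdusk and 41.1 ± 5.53 FPKM at predawn (SD, n = 3 each) and was not called. AT3G28270 (chromosome 3, 10538005 to 10540070), a putative transmembrane protein, averaged 53.4 ± 2.56 FPKM at postdusk and 1.77 ± 0.90 FPKM at predawn in tic-2, against 33.5 ± 8.18 FPKM at postdusk and 44.8 ± 7.15 FPKM at predawn in Col-0 (SD, n = 3 each). Both genes were low in tic-2 at predawn alone.

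AT2G27420, a cysteine proteinase, had 27.0, 25.1 and 23.0 FPKM in tic-2 at postdusk and 0.246, 0.332 and 0.297 FPKM in tic-2 at predawn, where 24 reads were recovered over 3 libraries. It was 85.9-fold higher at postdusk in tic-2 (4.33, SE 0.16, limma adjusted p = 1.5e-08) and was called lower in Col-0 (-0.74), at means of 1.68 FPKM at postdusk and 3.39 FPKM at predawn. Other genes called higher in tic-2 and lower in Col-0 were GPX7, a glutathione peroxidase (2.66 in tic-2 and -0.88 in Col-0), ARGAH2, an arginase (2.2 and -0.75), and the overlapping pair AT3G24460 and AT3G24463 (2.75 and 2.81 in tic-2, -1.31 and -0.76 in Col-0), whose reads cannot be told apart here. D27, of the carotenoid pathway to strigolactones, and NdhT, of the chloroplast NADH dehydrogenase complex, were called higher in tic-2 (2.51 and 2.45) and not in Col-0 (-0.21 and -0.12). Further large rises were those of cPT4 (4.19), AT1G76960 (4.1), NUDT24 (4.07), AT5G24155 (4.05), LDOX, an enzyme of the anthocyanin branch (3.81), and AT3G10185 (3.73), and all 6 were called higher in Col-0 too. AT3G10185 rests on 5 reads recovered at predawn in tic-2, and it, cPT4 and D27 each overlap another gene in the table.

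Other genes changed little or were not called in tic-2 and were far higher at postdusk than at predawn in Col-0. CCL, a transcript known as CCR-like, had 939, 852 and 1261 FPKM in tic-2 at postdusk and 956, 945 and 1045 FPKM in tic-2 at predawn, against means of 1465 FPKM at postdusk and 48.5 FPKM at predawn in Col-0. The tic-2 values of CCL overlapped, and the time effects differed by -4.85 (SE 0.19, limma adjusted p = 3.0e-08). MEE14 averaged 118 ± 22.7 FPKM at postdusk and 152 ± 14 FPKM at predawn in tic-2, (SD, n = 3 each). Col-0 had 202, 178 and 137 FPKM at postdusk and 6.59, 6.41 and 8.23 FPKM at predawn. MEE14 was not called in tic-2 at -0.38, but was called at -0.52 without the postdusk library lettered C. AT3G62550 was called at 0.28 in tic-2, a call lost in 10 of the 24 alternatives, and at 4.62 in Col-0.

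AT2G15020 and NDA1 were higher at postdusk in tic-2 and far lower at postdusk in Col-0. AT2G15020 (chromosome 2, 6491425 to 6493512), of unknown function, had 10.7, 11.8 and 18.1 FPKM in tic-2 at postdusk and 5.19, 2.72 and 4.44 FPKM in tic-2 at predawn, against means of 1.05 FPKM at postdusk and 76.1 FPKM at predawn in Col-0. Its interaction, 6.75 (SE 0.30, limma adjusted p = 1.0e-07), was the largest positive one among genes with a group mean of at least 5 FPKM. NDA1, an alternative NAD(P)H dehydrogenase of mitochondria, averaged 31.7 ± 3.47 FPKM at postdusk and 15.9 ± 1.91 FPKM at predawn in tic-2, against 2.38 ± 0.22 FPKM at postdusk and 62.3 ± 1.05 FPKM at predawn in Col-0 (SD, n = 3 each). In the other direction, AT2G15880, which encodes a leucine-rich repeat protein, averaged 14.8 ± 3.92 FPKM at postdusk and 139 ± 59.3 FPKM at predawn in tic-2, against 10.3 ± 2.15 FPKM at postdusk and 2.06 ± 0.499 FPKM at predawn in Col-0 (SD, n = 3 each).

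PIF4 and PHYA were higher before dawn than after dusk in tic-2, while other light signalling genes were called in both directions. PIF factors are basic helix-loop-helix proteins that promote hypocotyl growth in the dark and are degraded on contact with active phytochrome. PIF4 had 28.8, 23.5 and 39.1 FPKM in tic-2 at postdusk and 86.4, 78.3 and 74.4 FPKM in tic-2 at predawn, 2.62-fold lower at postdusk (-1.39, SE 0.18, limma adjusted p = 0.0001). In Col-0 the order was the reverse, with means of 21.8 ± 4.59 FPKM at postdusk and 6.42 ± 0.76 FPKM at predawn (SD, n = 3 each), and the time effects differed by -2.99 (SE 0.26, limma adjusted p = 9.8e-06). Postdusk levels of PIF4 overlapped between the genotypes.

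Several genes of the PIF list were called lower at postdusk in tic-2, and HAT1 (0.72), PIF3 (0.38) and PIF7 (0.73) were called higher. PIL1, a shade-induced PIF relative, had 2.22, 1.81 and 2.88 FPKM in tic-2 at postdusk and 18.3, 28.1 and 32.3 FPKM in tic-2 at predawn, against means of 1.17 FPKM at postdusk and 4.19 FPKM at predawn in Col-0. IAA29, an Aux/IAA repressor, was 15.7-fold lower at postdusk in tic-2 (-3.39) and changed by -1.17 in Col-0, and ATHB2, a homeodomain factor of shade avoidance, changed by -1.75 and -0.71. XTH15, a wall enzyme, had 1.79, 1.51 and 2.13 FPKM in tic-2 at postdusk and 8.59, 38.2 and 52.3 FPKM in tic-2 at predawn, with the library lettered A far below the others of its group, and this gene overlaps another in the table. Of the 19 genes of the PIF list, 13 were called lower and 3 higher in tic-2, with a median of -0.85, against 6 lower and 2 higher in Col-0 with a median of -0.29. The interaction was called for 6, all negative, and for 5 negative and 1 positive after rescaling or quantile normalization.

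PHYA, which encodes the far-red receptor, had 22.7, 19.3 and 22.3 FPKM in tic-2 at postdusk and 86.5, 90.8 and 66.5 FPKM in tic-2 at predawn, 3.79-fold lower at postdusk (-1.87, SE 0.12, limma adjusted p = 3.7e-07). Col-0 averaged 22 ± 0.57 FPKM at postdusk and 33.4 ± 2.38 FPKM at predawn (SD, n = 3 each), a change of -0.58, and the time effects differed by -1.29 (SE 0.16, limma adjusted p = 0.0002). FHY1, which carries phytochrome A into the nucleus, was called lower at postdusk in tic-2 (-0.80) and was not called in Col-0 (0.21). HFR1, a light-stabilised inhibitor of PIF proteins, was called lower in both (-2.44 in tic-2 and -2.08 in Col-0). The genes of the COP1 and SPA complex, which degrades light-signalling factors in the dark, were all called higher at postdusk in tic-2, at 0.57 for COP1 and 0.46 to 0.76 for SPA1 to SPA4. In Col-0, SPA1, SPA3 and SPA4 were called lower, SPA2 was called higher and COP1 was not called. HY5, a factor that promotes light responses, was called higher at postdusk in tic-2 (0.77) and lower in Col-0 (-0.53), and its relative HYH was not called in tic-2 (0.32) and was called lower in Col-0 (-3.02). Of the 17 genes of phytochrome signalling, 6 were called higher and 4 lower in tic-2, against 2 higher and 8 lower in Col-0. The interaction was called positive for 6 and negative for 2. Of all tested genes, 18.5% were called higher and 19.4% lower in tic-2, and 22.7% and 14.4% in Col-0. The interaction was called for 15.9% of all tested genes. Without the libraries lettered C, 5 phytochrome signalling genes were called in each direction in tic-2.

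Most genes of carbon starvation were called lower at postdusk in tic-2. DIN6, an asparagine synthetase induced by darkness and low sugar (AT3G47340, chromosome 3, 17437840 to 17441431), had 7.57, 7.66 and 18.0 FPKM in tic-2 at postdusk and 289.7, 387 and 399 FPKM in tic-2 at predawn, 32.3-fold lower at postdusk (-4.99, SE 0.35, limma adjusted p = 8.0e-07). Col-0 averaged 5.24 ± 1.68 FPKM at postdusk and 48.8 ± 18.6 FPKM at predawn (SD, n = 3 each), and the time effects differed by -2.03 (SE 0.49, limma adjusted p = 0.015). DIN1, a senescence-associated rhodanese, had 25.9, 19.1 and 47.6 FPKM in tic-2 at postdusk and 184, 431 and 685 FPKM in tic-2 at predawn, and was not called in Col-0 (-0.74). The predawn spread of DIN1 was wide, and every tic-2 predawn library still exceeded every postdusk one.

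DRM2, a dormancy-associated gene, was called in opposite directions, lower at postdusk in tic-2 (-1.09) and higher in Col-0 (4.001). It had 137, 119 and 179.8 FPKM in tic-2 at postdusk and 263, 342 and 317 FPKM in tic-2 at predawn, against means of 352 FPKM at postdusk and 20.6 FPKM at predawn in Col-0. Of the 16 genes of carbon starvation and trehalose phosphate, 11 were called lower and 2 higher in tic-2, with a median of -1.10, against 4 lower and 4 higher in Col-0 with a median of -0.14. TPS5, a trehalose phosphate synthase homologue, was called higher in both (1.2 in tic-2 and 1.25 in Col-0), while TPS8 to TPS11 were called lower in tic-2 at -0.80 to -1.61. The interaction was called for 8 genes of this list, 7 of them negative.

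Most starch genes were higher at postdusk than at predawn in tic-2. Starch is made by day and broken down at night, by phosphorylation of the granule, beta-amylases and glucan phosphorylases. Of 20 tested genes of breakdown, 18 were called higher at postdusk and 1 lower in tic-2, with a median of 1.05, against 16 higher and 2 lower in Col-0 with a median of 1.94. PHS2, the cytosolic glucan phosphorylase, averaged 156 ± 9.36 FPKM at postdusk and 27.4 ± 3.28 FPKM at predawn in tic-2, against 266 ± 35.4 FPKM at postdusk and 14.2 ± 1.56 FPKM at predawn in Col-0 (SD, n = 3 each). The interaction was negative for 11 and positive for 3.

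The 3 positive ones were beta-amylase genes. BAM3, the main plastid beta-amylase of leaves, had 178, 185 and 236 FPKM in tic-2 at postdusk and 19.7, 32.4 and 44.3 FPKM in tic-2 at predawn (2.66, SE 0.22, limma adjusted p = 3.4e-06), and averaged 178 FPKM at postdusk and 239 FPKM at predawn in Col-0, where it was not called. BAM9 was called higher in tic-2 (0.63) and lower in Col-0 (-3.44), and BAM1 likewise at 0.44 and -0.41. BAM4 was the only breakdown gene called lower in tic-2 (-0.82). AMY3, a plastid alpha-amylase, was higher at postdusk by 1.13 in tic-2 and by 4.60 in Col-0. Of 16 tested genes of starch synthesis, 14 were called higher and 0 lower in tic-2 with a median of 0.85, against 11 higher and 3 lower in Col-0 with a median of 0.77. GBSS1, the granule-bound synthase that makes amylose, was not called in tic-2 (0.26) and was called lower in Col-0 (-2.74), and QQS, a regulator of starch content, was under 1 FPKM in all 6 tic-2 libraries.

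Photosynthesis genes separated by function. Light-harvesting genes, which encode the chlorophyll a/b-binding antenna proteins, were lower at postdusk in both genotypes: of 17, 14 were called lower and 1 higher in tic-2 with a median of -1.21, against 15 lower and 1 higher in Col-0 with a median of -2.09. LHCB1.4 had 64.7, 39.5 and 54.0 FPKM in tic-2 at postdusk and 1590.1, 1752 and 2122 FPKM in tic-2 at predawn, the largest fall named here (-5.10, SE 0.35, limma adjusted p = 6.8e-07). LHCB1.1 averaged 333 ± 7.32 FPKM at postdusk and 4128 ± 716 FPKM at predawn in tic-2, against 66.6 ± 9.10 FPKM at postdusk and 4226 ± 177 FPKM at predawn in Col-0 (SD, n = 3 each). LHCB4.3 alone was called higher, at 3.42 in tic-2 and 2.22 in Col-0. The LHCB1, LHCB2 and RBCS genes are near-identical copies and uncertain as single genes, since no source used here says how reads shared between copies were counted. The same holds for the AOC genes below.

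Calvin cycle genes, which encode the enzymes of carbon fixation, did the opposite in tic-2. Of 9, 7 were called higher at postdusk and 0 lower, with a median of 1.49, against 2 higher and 2 lower in Col-0 with a median of 0.06. SBPASE had 613, 584 and 569.95 FPKM in tic-2 at postdusk and 199.8, 179 and 151 FPKM in tic-2 at predawn, 3.33-fold higher at postdusk (1.74, SE 0.10, limma adjusted p = 3.1e-07), with Col-0 means of 496 FPKM at postdusk and 467 FPKM at predawn. RCA, the rubisco activase, averaged 4283 ± 268 FPKM at postdusk and 1571 ± 142 FPKM at predawn in tic-2, against 2077 ± 243 FPKM at postdusk and 3775 ± 254 FPKM at predawn in Col-0 (SD, n = 3 each). The interaction was called positive for 8 of the 9, and for 6 after quantile normalization. Of 12 chlorophyll synthesis genes, 3 were called higher and 6 lower in tic-2 and 2 higher and 7 lower in Col-0. Their interaction was called positive for 5 and negative for 2. Of all tested genes, 18.5% were called higher and 19.4% lower in tic-2, and 22.7% and 14.4% in Col-0. The interaction was called for 15.9% of all tested genes. PORA, a light-dependent reductase of chlorophyll synthesis, had 9 recovered reads in tic-2 at postdusk and a mean of 4.73 FPKM at predawn.

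**Figure D4:**
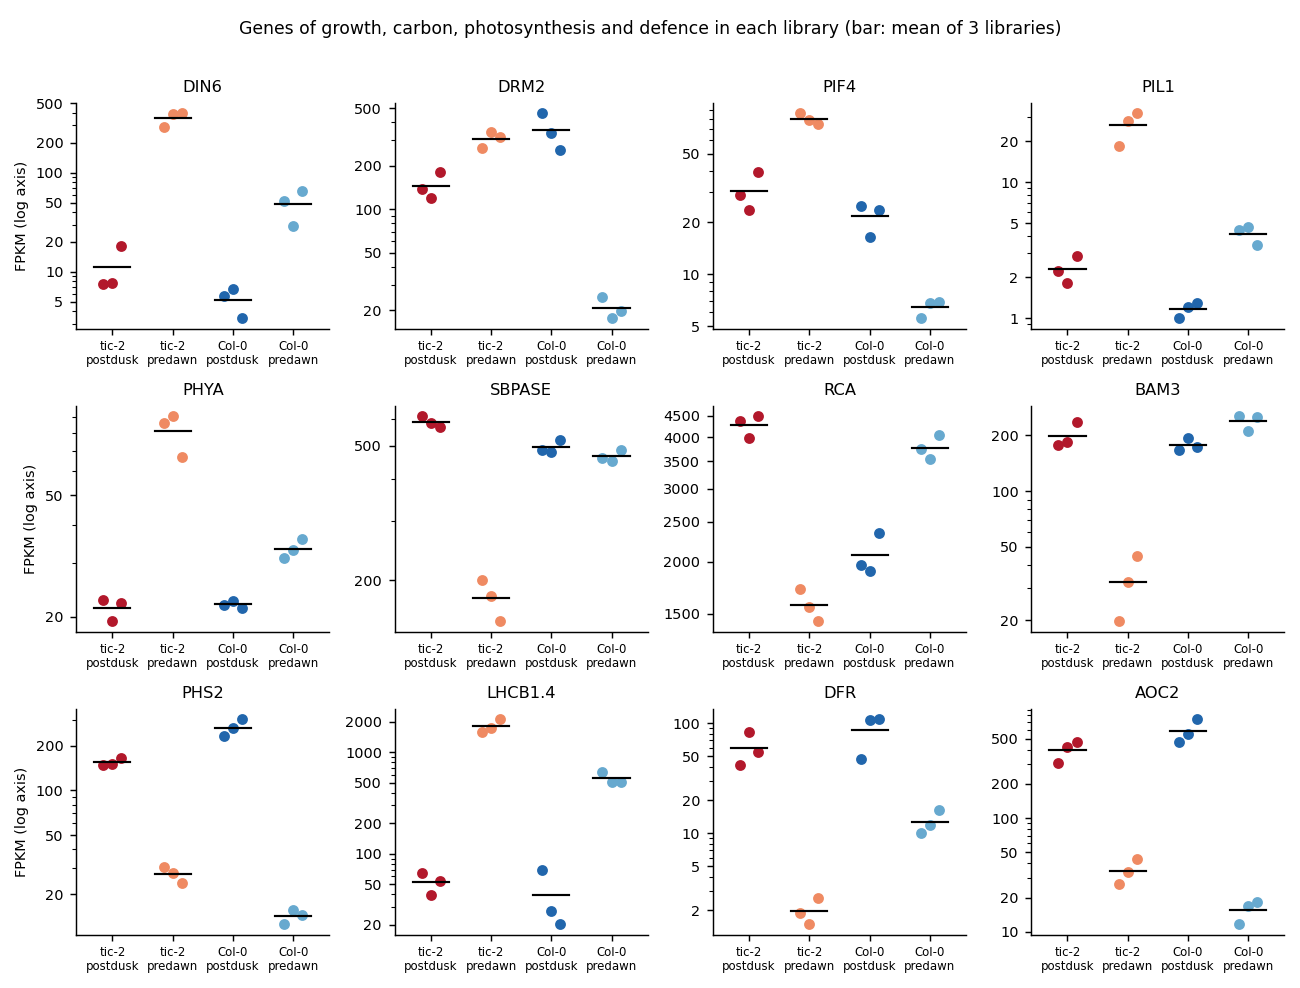
FPKM of 12 genes of growth, carbon use, photosynthesis and defence in each library on log axes, ordered as tic-2 at postdusk and at predawn and then Col-0 at postdusk and at predawn, with bars for the mean of 3 libraries. DIN6, PIF4, PIL1 and PHYA are highest in tic-2 at predawn, and SBPASE and BAM3 are lowest there. DFR and AOC2 are higher at postdusk than at predawn in both genotypes.

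Flavonoid and jasmonate genes were mostly higher at postdusk in both genotypes. Of 15 tested flavonoid and anthocyanin genes, 13 were called higher and 0 lower in tic-2 with a median of 2.15, and the counts in Col-0 were the same with a median of 1.70. DFR, an enzyme of the anthocyanin branch, had 41.2, 83.7 and 54.6 FPKM in tic-2 at postdusk and 1.89, 1.49 and 2.55 FPKM in tic-2 at predawn, 30.3-fold higher at postdusk (4.31, SE 0.32, limma adjusted p = 1.4e-06), and changed by 2.62 in Col-0. DFR was the only flavonoid gene called for the interaction (1.69, SE 0.46, limma adjusted p = 0.026). After rescaling there were 3 such genes. PAP2, a MYB activator of anthocyanin synthesis, had 29.99, 46.2 and 24.2 FPKM in tic-2 at postdusk and 0.381, 1.503 and 3.72 FPKM in tic-2 at predawn.

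Of 15 jasmonate genes, 11 were called higher and 0 lower in tic-2 with a median of 1.48, against 10 higher and 1 lower in Col-0 with a median of 1.28. AOC2, an allene oxide cyclase of jasmonate synthesis, averaged 399 ± 83.3 FPKM at postdusk and 34.7 ± 8.87 FPKM at predawn in tic-2, against 585 ± 142 FPKM at postdusk and 15.7 ± 3.53 FPKM at predawn in Col-0 (SD, n = 3 each). The interaction was called for 2 of them, AOC2 at -1.63 and the repressor gene JAZ9 at 1.76, and for 6 without the libraries lettered C.

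Fewer genes of the cold and abscisic acid response were called higher at postdusk in tic-2 than in Col-0. Of 16, 4 were called higher and 2 lower in tic-2 with a median of 0.02, against 9 higher and 1 lower in Col-0 with a median of 1.15. All tested genes were called higher at 18.5% and lower at 19.4% in tic-2, and at 22.7% and 14.4% in Col-0. COR413IM1, a chloroplast inner membrane protein, had 154, 141 and 147 FPKM in tic-2 at postdusk and 290.2, 272 and 277 FPKM in tic-2 at predawn, against means of 50.5 FPKM at postdusk and 8.04 FPKM at predawn in Col-0. It was thus called lower in tic-2 (-0.92) and higher in Col-0 (2.52). COR27, a night-time regulator of the clock and of freezing tolerance, was called higher at 0.99 in tic-2 and 3.34 in Col-0, and the interaction was called negative for 7 of the 16 and positive for 1.

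The next 4 lists are read beside all tested genes, of which 18.5% were called higher and 19.4% lower in tic-2. In Col-0 22.7% of all tested genes were called higher and 14.4% lower, and the interaction was called for 15.9%. Nitrogen and sulfur assimilation genes numbered 5 higher and 0 lower of 10 in tic-2 (median 0.62), against 5 higher and 2 lower in Col-0 (median 0.09). GLU1, the ferredoxin-dependent glutamate synthase, rose by 2.04 in tic-2 and by 0.72 in Col-0, and GLN2, the plastid glutamine synthetase, by 1.39 and 0.63. Of 14 wall-loosening genes, 3 were called higher and 8 lower in tic-2, against 3 higher and 5 lower in Col-0. After rescaling 5 were lower in tic-2. The interaction of the wall genes was positive for 2 and negative for 2, and positive for 3 and negative for 0 after rescaling. Of 12 genes of gibberellin and brassinosteroid metabolism, 1 was called higher and 5 lower in tic-2, and 4 in each direction in Col-0. Their interaction was called for 3, all negative, and not for the 9 others. CPD, a brassinosteroid synthesis enzyme, averaged 103 ± 11.9 FPKM at postdusk and 326 ± 16 FPKM at predawn in tic-2, against 71.5 ± 5.96 FPKM at postdusk and 147 ± 2.22 FPKM at predawn in Col-0 (SD, n = 3 each). Of 11 iron genes, 2 were called higher and 1 lower in tic-2, where 18.5% and 19.4% of all tested genes were. Of those, FER1, an iron-storage ferritin, rose by 0.91, and FRO3, a ferric reductase, fell by 1.38 on the log2 scale.

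The list counts were repeated without both tic-2 libraries lettered C, and are given here as genes called higher and lower in tic-2. Clock counts were 1 and 10 for morning genes, 6 and 0 for evening genes, and 2 and 3 for outputs. In light signalling they were 5 and 5 for the phytochrome list and 3 and 13 for the PIF list. Carbon lists had 17 and 1 for starch breakdown, 12 and 0 for starch synthesis, and 1 and 11 for carbon starvation. Photosynthesis lists had 1 and 13 for light harvesting, 8 and 0 for the Calvin cycle, and 2 and 6 for chlorophyll synthesis. Flavonoid genes had 13 and 0, jasmonate genes 11 and 1, cold and abscisic acid genes 3 and 3, and nitrogen and sulfur genes 6 and 1. Counts were 3 and 5 for wall loosening, 1 and 3 for gibberellin and brassinosteroid metabolism, 1 and 1 for iron, and 0 and 1 for both root and seed markers. Negative interaction calls became 9 for the starvation list and 12 for starch breakdown.

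Markers of other organs and stages were measured beside these lists. Of 10 tested root markers, 0 were called higher and 2 lower in tic-2, SHR at -0.32 and CASP1 at -0.99, and of 11 seed markers limma called 0, also at an unadjusted p under 0.05, with a median of -0.60. Both root calls were lost in some alternatives, and 19.4% of all tested genes were called lower in tic-2. The summed root markers were 944 to 1006 FPKM in tic-2 at postdusk and 1008 to 1501 FPKM in tic-2 at predawn, and the summed seed markers 221 to 425 FPKM at postdusk and 304 to 807 FPKM at predawn. No seed marker was at 0 in a tic-2 library, and 1 root marker was at 0 in each of the tic-2 postdusk libraries lettered B and C. Their part in the differences above was not tested, and in whole seedlings fewer cells of a type and less RNA per cell cannot be told apart.

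**Figure D5:**
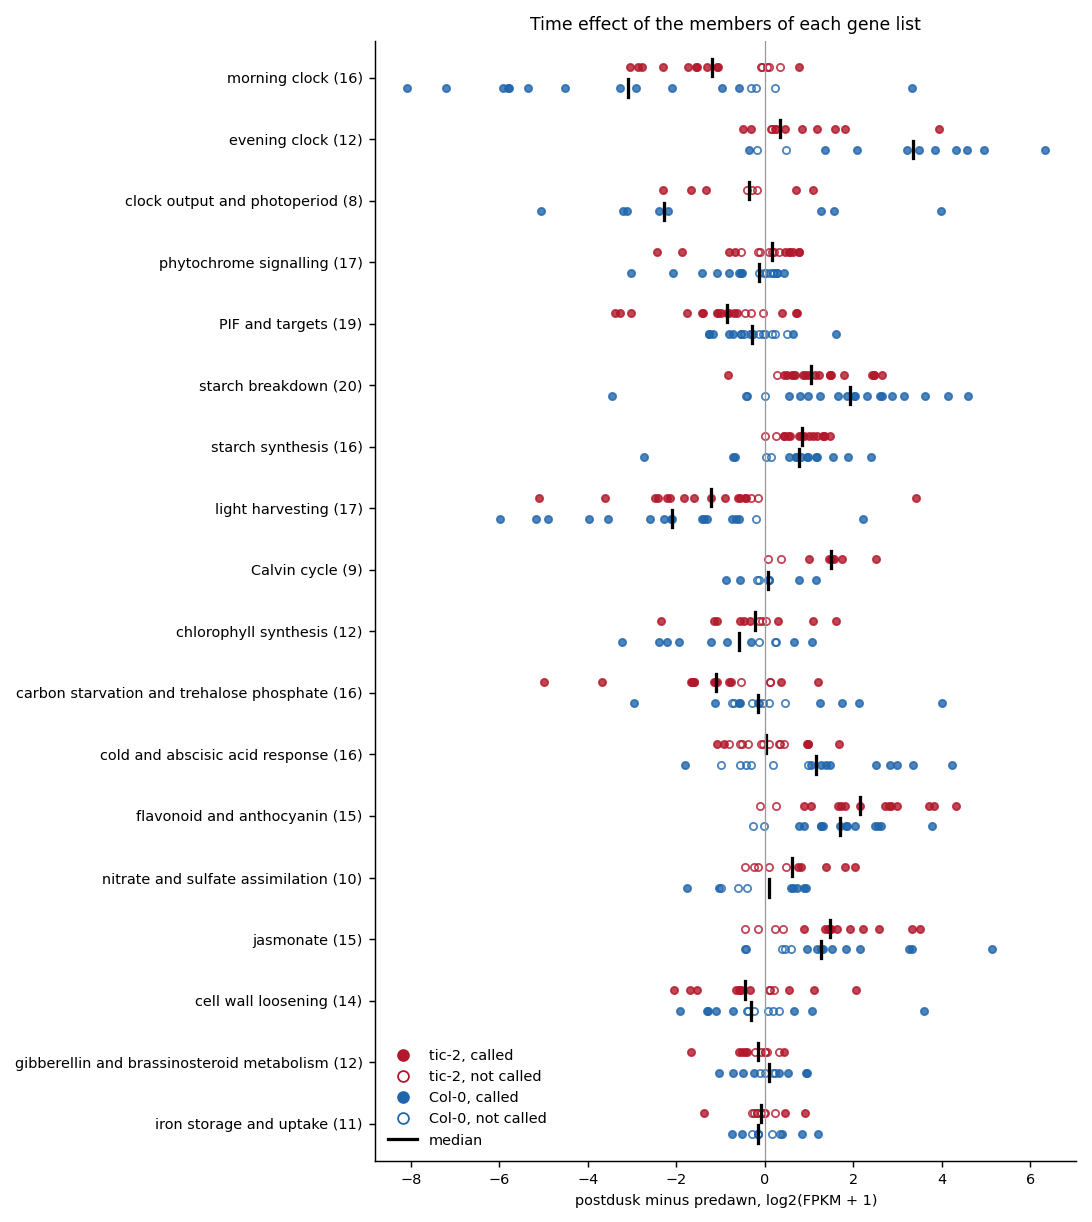
Time effect, postdusk minus predawn on the log2(FPKM + 1) scale, of each tested member of 18 gene lists, with tic-2 (red) above Col-0 (blue) in each row, filled points called by limma, open points not called, black bars the medians and the number of tested members in brackets. Most morning and evening clock genes draw towards 0 in tic-2, the medians of PIF targets and starvation genes move further below 0, and flavonoid and jasmonate genes lie mostly above 0 in both genotypes.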

How the data were processed

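RNA was sequenced from whole seedlings with a directional library kit, per the labels' protocols. The authors deposited 1 table of FPKM values, 12 libraries by 25729 genes. TopHat, TopHat2, edgeR and the TAIR10 build are named in the submitters' processing notes without roles. No source used here names the counter, the RNA selection or the strand setting. Columns were tied to groups by their names only, because the description field of 6 samples exchanges tic-2 predawn with Col-0 postdusk against their titles. The letters A to C are used here only to name libraries.

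Values were tested as log2(FPKM + 1) (pseudocount 1) with limma 3.58.1 in R 4.3.3, with a mean-variance trend, 12 libraries in 4 group means, 8 residual degrees of freedom and 3.78 prior degrees of freedom, after a filter of 1 FPKM in 3 libraries that removed 6455 genes. This scale understates changes of low genes. Folds are ratios of mean FPKM. The fit was tested on simulated data. Gene symbols, coordinates and promoters came from RefSeq TAIR10.1, which matched 25453 gene IDs. 133 tested genes had no promoter window. Reads were recovered from the FPKM steps and exon lengths, with 99.407% to 99.472% of values under 200 reads whole within 0.05. Reads without molecular identifiers carry counting error only as a lower limit of the error.

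The members, the 20 gene lists (295 genes, of which 15 fell below the filter and 4 were not analysed here), the motifs and the naming rule were chosen with earlier results of these data known. The rule named 97 genes: 11 of the clock and of light signalling, the 12 largest rises and falls in tic-2 without overlap, the 5 largest differences, reversals and gains each way, all with a mean of at least 5 FPKM, and up to 3 members a list. Other list members were named with their values seen. Alternatives covered the pseudocount, filter, scaling, weights, block and left-out libraries.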

Additional observations from a re-analysis of the deposited data

Results flagged for a closer look

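The time effect differed between the genotypes, by limma's interaction test, for 3060 genes. Genes named above, or in the lists, whose difference was called and reached 3 on the log2 scale are given here, a size set with the values known. No explanation was weighed.

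The time effect was more positive in tic-2 than in Col-0 for AT2G15020 (6.75), LHY (5.79), CCA1 (5.66), SQP1 (5.29), NDA1 (5.17) and AT2G27420 (5.07). Smaller positive differences were those of AT3G28270 (4.77), RVE1 (4.62), RVE8 (4.25), BAM9 (4.07), AT3G24460 (4.06), ASG4 (3.69), AT3G24463 (3.58), GPX7 (3.54), HYH (3.35), cPT4 (3.29), CAT2 (3.27), BAM3 (3.08), LNK2 (3.03) and GBSS1 (3.00).

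The time effect was more negative in tic-2 than in Col-0 for DRM2 (-5.09), AT2G15880 (-4.99), CCL (-4.85), MEE14 (-4.79) and AT3G62550 (-4.34). Smaller negative differences were those of PRR5 (-3.67), MIOX2 (-3.55), AMY3 (-3.47), COR413IM1 (-3.44), FKF1 (-3.35), GRP7 (-3.28), AT4G33980 (-3.24), PRR7 (-3.23), XTH15 (-3.16), PRR3 (-3.14) and LUX (-3.04). MIOX2 had 1.6, 1.57 and 1.82 FPKM in tic-2 at postdusk and 2.57, 22.8 and 52.6 FPKM in tic-2 at predawn.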

How the results depend on the processing

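In tic-2, limma called 7304 genes as reported, 12164 with array weights, 5043 from the 6 tic-2 libraries alone, and 5471 to 7504 with libraries left out. For the difference between the genotypes it called 3060 as reported, 7954 with array weights, and 1981 (without both tic-2 libraries lettered B) to 4440 (without both lettered C) with libraries left out. In Col-0 the left-out range was 5647 to 8921 around 7142. The share of Col-0 calls that tic-2 called in the same direction was 53.4%, and was 50.8% with no filter, 55.6% at 5 FPKM, 55.7% after rescaling, 55.1% after quantile normalization, 59.5% with array weights, 48.6% to 55.6% with 1 library left out, and 44.8%, 45.0% and 46.9% without both tic-2 libraries lettered A, B and C. With the letter as a replicate block, tic-2 had 7048 calls, the difference 2789 and Col-0 6839, with a share of 52.8%. Deviations from the group means correlated at 0.084, -0.042 and 0.07 between same-lettered tic-2 libraries, and at -0.144 to 0.08 between differently lettered ones. With 3 libraries a group, these values cannot tell whether libraries of the same letter were handled together. Of 97 named genes, 86 kept direction and side of the threshold in tic-2 under the 24 alternatives. Values turned sign for PRR7 (-0.0403 to 0.1921 with 1 library left out), TIC (-0.1942 to 0.2098 with 1 left out, -0.0328 and -0.0116 without both A or both C) and CCL (-0.1336 to 0.1494 with 1 left out, -0.0882 without both C, -0.0074 after quantile normalization, -0.0183 with array weights). None of these was called. Calls of LUX, AT3G62550, HR4, MIOX2, FER4, SHR and CASP1 were lost in some alternatives, and MEE14 gained one in 2. The causes were not tested.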

Other observations

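Gene families grouped by the words of their RefSeq product names, chosen after seeing the data, gave further counts in tic-2 at postdusk against predawn. A match by words can take in genes that are not members of the family proper. Tubulins are the subunits of microtubules. Of 23 genes with tubulin in the product name, 2 were called higher and 16 lower in tic-2, with a median of -0.50. In Col-0, 7 were called higher and 4 lower, with a median of 0.14. Of 42 core and linker histone genes, 0 were called higher and 16 lower in tic-2, against 6 in each direction in Col-0. The interaction was positive for 1 and negative for 11 tubulin genes, and for 2 and 7 after median-of-ratios rescaling. For histone genes it was positive for 0 and negative for 7, and negative for 3 after rescaling. Of all tested genes, 18.5% were called higher and 19.4% lower in tic-2. Without both tic-2 libraries lettered C, 1 tubulin gene was called higher and 17 lower, and 12 histone genes were called lower.

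Of 215 pentatricopeptide repeat genes, whose proteins process organelle RNA, 88 were called higher and 8 lower in tic-2 with a median of 0.29, against 109 higher and 9 lower in Col-0 with a median of 0.36. Of 24 aquaporin genes, 2 were called higher and 12 lower in tic-2, against 3 higher and 11 lower in Col-0, and the interaction was positive for 6 and negative for 1. Of 44 genes with photosystem in the product name, 11 were called higher and 10 lower in tic-2, against 3 higher and 23 lower in Col-0. The interaction was positive for 21 and negative for 0. These genes include light-harvesting genes such as LHCB2.2, so their counts overlap with those of the light-harvesting list. Of all tested genes, 18.5% were called higher and 19.4% lower in tic-2, and 22.7% and 14.4% in Col-0. The interaction was called for 15.9%.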
